A study of Mus musculus with 38 samples.

Results

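The genes Nup62cl, Gm13016, Fancd2, Theg, Gm3772, Tcfl5, Drc1, Asl and Slc17a6, were followed through every RNA measurement of the study. They are 9 of the 55298 genes in the gene count table. They were chosen by their measured levels in nuclei sorted from the adult brain, where they responded in more than 1 mouse line, so those levels are given as a description without a test. Trim28 was absent or reduced by design in the groups compared. Trim28 is a corepressor that binds the large family of KRAB zinc finger proteins, which hold it at particular DNA sequences. There it gathers the histone methyltransferase SETDB1 and other repressors, and the mark H3K9me3 is laid down. In stem and progenitor cells this machinery is best known for keeping transposable elements silent, and it also acts on some genes, among them genes otherwise used in the germline.

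Neuronal nuclei of the adult forebrain were sorted from 3 mouse lines, 2 months after AAV vectors had been injected into the forebrain. The study gives AAV5 and the striatum for the Rosa26 Cas9 knock-in mice. In Cas9-GFP knock-in mice, the vectors carried H2B-RFP under the synapsin promoter together with guide RNAs against Trim28, cutting in exon 3, in exon 4, in exon 13 or in all of them, with 1 library for each (n = 4), or with a guide against lacZ (n = 1). In Stop-Cas9-GFP knock-in mice, Cas9 is made only after Cre, which was driven by the Synapsin promoter, and the same 4 guide sets (n = 4) and lacZ (n = 1) were used. In Trim28 floxed mice, vectors expressing Cre were injected, and 4 libraries are labelled KO and 4 control. The study describes Trim28-flox +/- and +/+ animals for this line, but the labels do not say which library came from which genotype, so a control may also carry an excised allele. Emx1-Cre removes Trim28 in progenitors of the developing dorsal forebrain, before excitatory neurons and astrocytes of the cortex arise from them. Cortex was taken at 3 months of age from 3 Trim28-KO animals (Emx1-Cre +/-, Trim28-fl +/+) and from 3 controls which, per the labels, carried Emx1-Cre +/- and Trim28-fl +/-, so that the controls too had 1 allele excised. Elsewhere the study speaks of controls without Cre, and the labels are followed here. Nuclei of 4 of these 6 animals (2 Trim28-KO, 2 control) were also profiled singly. Neural progenitor cells (NPCs), grown from the embryonic day 13.5 forebrain of Rosa26-Cas9 knock-in mice, were transduced with lentiviral guides for 1 of these exons (2 cultures per exon, n = 6) or against lacZ (n = 2), and RFP+ cells were sorted after 10 days. The 32 RNA-seq libraries held between 8790346 reads in genes (the lacZ library of Stop-Cas9-GFP mice) and 25345083 (a control cortex). Levels are given as CPM (reads scaled to the size of the library, with TMM factors within each experiment), and where genes are compared with each other, per kilobase of exon (RPKM).

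Trim28 itself was read first as a check of the labels. In Cas9-GFP mice it stood at 97.6, 105, 103 and 93.7 CPM with guide 13, guide 3, the 3 guides together and guide 4, and at 143 CPM with lacZ. In Stop-Cas9-GFP mice it stood at 103, 102, 88.4 and 127 CPM in the same order, against 105 CPM with lacZ. Thus all 4 guide libraries were below the control in the first line, whereas in the second they lay on both sides of it. The guides cut the gene and need not remove its RNA, so these levels do not measure the protein. The Trim28-flox libraries labelled KO held 130, 146, 136 and 131 CPM of Trim28 and the libraries labelled control 28.1, 25.6, 31.6 and 28.0 CPM. The groups did not overlap, and the Trim28 level went against the labels. For this line the study reports that its knockout animals lost Trim28 RNA and, in neurons, the protein, while the RNA levels here run the other way by label. Whether the labels of this line were exchanged was not tested. The labelled names are kept below, and each direction drawn from this line is given beside its Trim28 level. Trim28 was lower in Trim28-KO cortex (6.07, 8.52 and 8.86 CPM) than in control cortex (20.8, 19.0 and 21.4 CPM). It was also lower in the 6 Trim28-KO NPC cultures (36.8 to 73.5 CPM, median 47.8) than in the lacZ cultures (157 and 204 CPM).

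The nuclei carried the RNA of striatal neurons. A list of 10 genes of striatal projection neurons (Pde10a the most abundant) summed to between 6080 and 10090 CPM in the 18 sorted-nuclei libraries, and 6 astrocyte genes to between 152 and 901 CPM, with Slc4a4 the most abundant. Between the labelled groups of Trim28-flox mice, the astrocyte genes summed to 152 to 245 CPM in the libraries labelled control and to 177 to 304 CPM in those labelled KO. The oligodendrocyte genes summed to 125 to 204 and 130 to 157 CPM and the microglial genes to 74.4 to 86.6 and 68.8 to 76.4 CPM, so that the sums of all 3 lists overlapped between the labelled groups. In the CRISPR lines, some marker genes lay to one side of the lacZ library in every guide library. Of 8 genes of cortical excitatory neurons, 4 lay above the lacZ library in every guide library in each line (among them Neurod2 and Slc30a3 in both lines, and Slc17a7 in Stop-Cas9-GFP mice) and 0 below. A second list, the 6 excitatory markers used to name the single nuclei, shares genes with it and gave fewer. Of these, 1 lay above in Cas9-GFP mice and 2 in Stop-Cas9-GFP mice, and 0 below in either. Of all genes tested, 23.5% lay above the single lacZ library in every guide library and 21.8% below in Cas9-GFP mice, and 16.3% and 17.2% in Stop-Cas9-GFP mice. These shares are of genes with enough reads, whereas the lists were counted whole. The cortical excitatory sum was 117 to 299 CPM with guides against 129 CPM with lacZ in Cas9-GFP mice, and 94.7 to 247 against 86.9 CPM in Stop-Cas9-GFP mice, with Nrgn the most abundant. Of the 10 striatal genes, 4 lay below lacZ in every guide library and 1 above in Cas9-GFP mice, and 5 below and 0 above in Stop-Cas9-GFP mice, Ppp1r1b, Drd2 and Penk being below in both. They summed to 6847 to 9239 CPM with guides against 9415 CPM with lacZ, and to 7975 to 9630 against 10090 CPM. Of 8 genes of neurons in general, 5 lay below (Rbfox3, Snap25, Tubb3, Eno2 and Syn1) and 1 above in Cas9-GFP mice (sums 3148 to 3368 against 3508 CPM, Syt1 the most abundant), and 1 below and 1 above in Stop-Cas9-GFP mice (3213 to 3449 against 3297 CPM). Of 8 microglial genes, 4 lay above in every guide library of Cas9-GFP mice (sums 69.5 to 92.3 against 65.2 CPM) and 1 in Stop-Cas9-GFP mice (45.2 to 62.2 against 55.7 CPM), the latter no more than the share of all genes. In Trim28-flox mice 0 of the 8 cortical excitatory genes and 1 of the 10 striatal genes had separate labelled groups. With 4 libraries on each side this is rarer, and of 17102 genes 1.65% had every library labelled KO above every control and 1.72% below. The part of these shifts in the levels of the 9 genes was not tested, and with 1 lacZ library in each CRISPR line they cannot be told apart from that library. In such bulk libraries, fewer cells of a type and less RNA per cell cannot be told apart.

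The genes lie on 8 chromosomes and share no neighbourhood, except that Drc1 (chr5:30281388-30366695, forward strand) and Asl (chr5:130011258-130029247, reverse strand) are both on chromosome 5 (all positions on GRCm38). Tcfl5 is at chr2:180621956-180642708 on the reverse strand, Gm13016 at chr4:140380630-140385574 on the forward strand and Nup62cl at chrX:140006805-140062712 on the reverse strand. Theg is at chr10:79576379-79587331 (reverse), Gm3772 at chr13:70021959-70119949 (forward), Fancd2 at chr6:113531682-113597017 (forward) and Slc17a6 at chr7:51622006-51671119 (forward). RefSeq's table of promoters (GRCm38.p6, 250 bases before to 50 after a start) held 6 of the 9 genes. Fancd2, Theg and Asl had no entry. The stretches upstream of the annotated exons are shown for 5 genes, because the genes moved together in the adult libraries and the reader can see that their starts are unlike. CG dinucleotides, the sites of DNA methylation in mammals, are in capitals, and the strand is that of the gene. They run over chr2:180642709-180642941 for Tcfl5, chrX:140062713-140062818 for Nup62cl, chr5:30281143-30281387 for Drc1, chr4:140380217-140380466 for Gm13016 and chr13:70021709-70021958 for Gm3772.
Tcfl5: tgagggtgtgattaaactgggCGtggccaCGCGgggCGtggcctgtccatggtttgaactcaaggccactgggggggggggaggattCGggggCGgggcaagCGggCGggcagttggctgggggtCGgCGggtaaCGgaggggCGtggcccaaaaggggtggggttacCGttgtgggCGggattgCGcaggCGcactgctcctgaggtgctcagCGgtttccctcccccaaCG
Nup62cl: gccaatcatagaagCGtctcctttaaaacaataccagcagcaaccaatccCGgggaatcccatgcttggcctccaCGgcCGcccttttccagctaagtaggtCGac
Drc1: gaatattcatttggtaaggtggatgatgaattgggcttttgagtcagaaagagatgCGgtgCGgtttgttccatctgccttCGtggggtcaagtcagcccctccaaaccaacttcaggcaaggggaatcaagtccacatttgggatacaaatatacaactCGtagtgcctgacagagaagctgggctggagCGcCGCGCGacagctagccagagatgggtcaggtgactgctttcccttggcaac
Gm13016: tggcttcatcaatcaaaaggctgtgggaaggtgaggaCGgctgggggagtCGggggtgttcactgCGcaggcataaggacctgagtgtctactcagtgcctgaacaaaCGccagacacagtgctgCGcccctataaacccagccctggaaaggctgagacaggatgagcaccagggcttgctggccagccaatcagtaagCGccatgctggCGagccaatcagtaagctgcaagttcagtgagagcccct
Gm3772: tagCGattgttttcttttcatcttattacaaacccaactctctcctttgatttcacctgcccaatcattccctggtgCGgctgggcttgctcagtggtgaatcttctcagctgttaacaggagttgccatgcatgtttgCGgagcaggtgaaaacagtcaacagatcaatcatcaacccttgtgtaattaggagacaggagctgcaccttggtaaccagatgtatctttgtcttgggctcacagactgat

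Over the whole 300-base window, Tcfl5 held 35 CG dinucleotides and Nup62cl 21, where the median over all 32851 promoters of the table was 7. As many as in Tcfl5 were found in 6.95% of promoters, and as many as in Nup62cl in 24.8%. Drc1 held 11, Gm13016 9 and Gm3772 4, and the windows of Slc17a6 held 8 and 3. The letters GGGCGG (a GC box, either strand) occurred 5 times in Tcfl5 and 4 times in Nup62cl, and in 35.7% of all promoters at least once. CCAAT occurred 2 times in Nup62cl and in Gm13016, and in 37.4% of all promoters. TATAAA occurred in Gm13016 alone of these windows, and in 13.6% of all promoters. CACGTG, found in 7.15% of promoters, was in none of them, nor was TGACGTCA (a cAMP response element, in 1.79% of promoters). None of these 5 motifs was in all 7 windows. The window of Gm13016 overlapped a B4A repeat, B4A_dup27578 (chr4:140380255-140380549, forward strand), which is taken up again with the transposable elements.

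**Figure D1:**
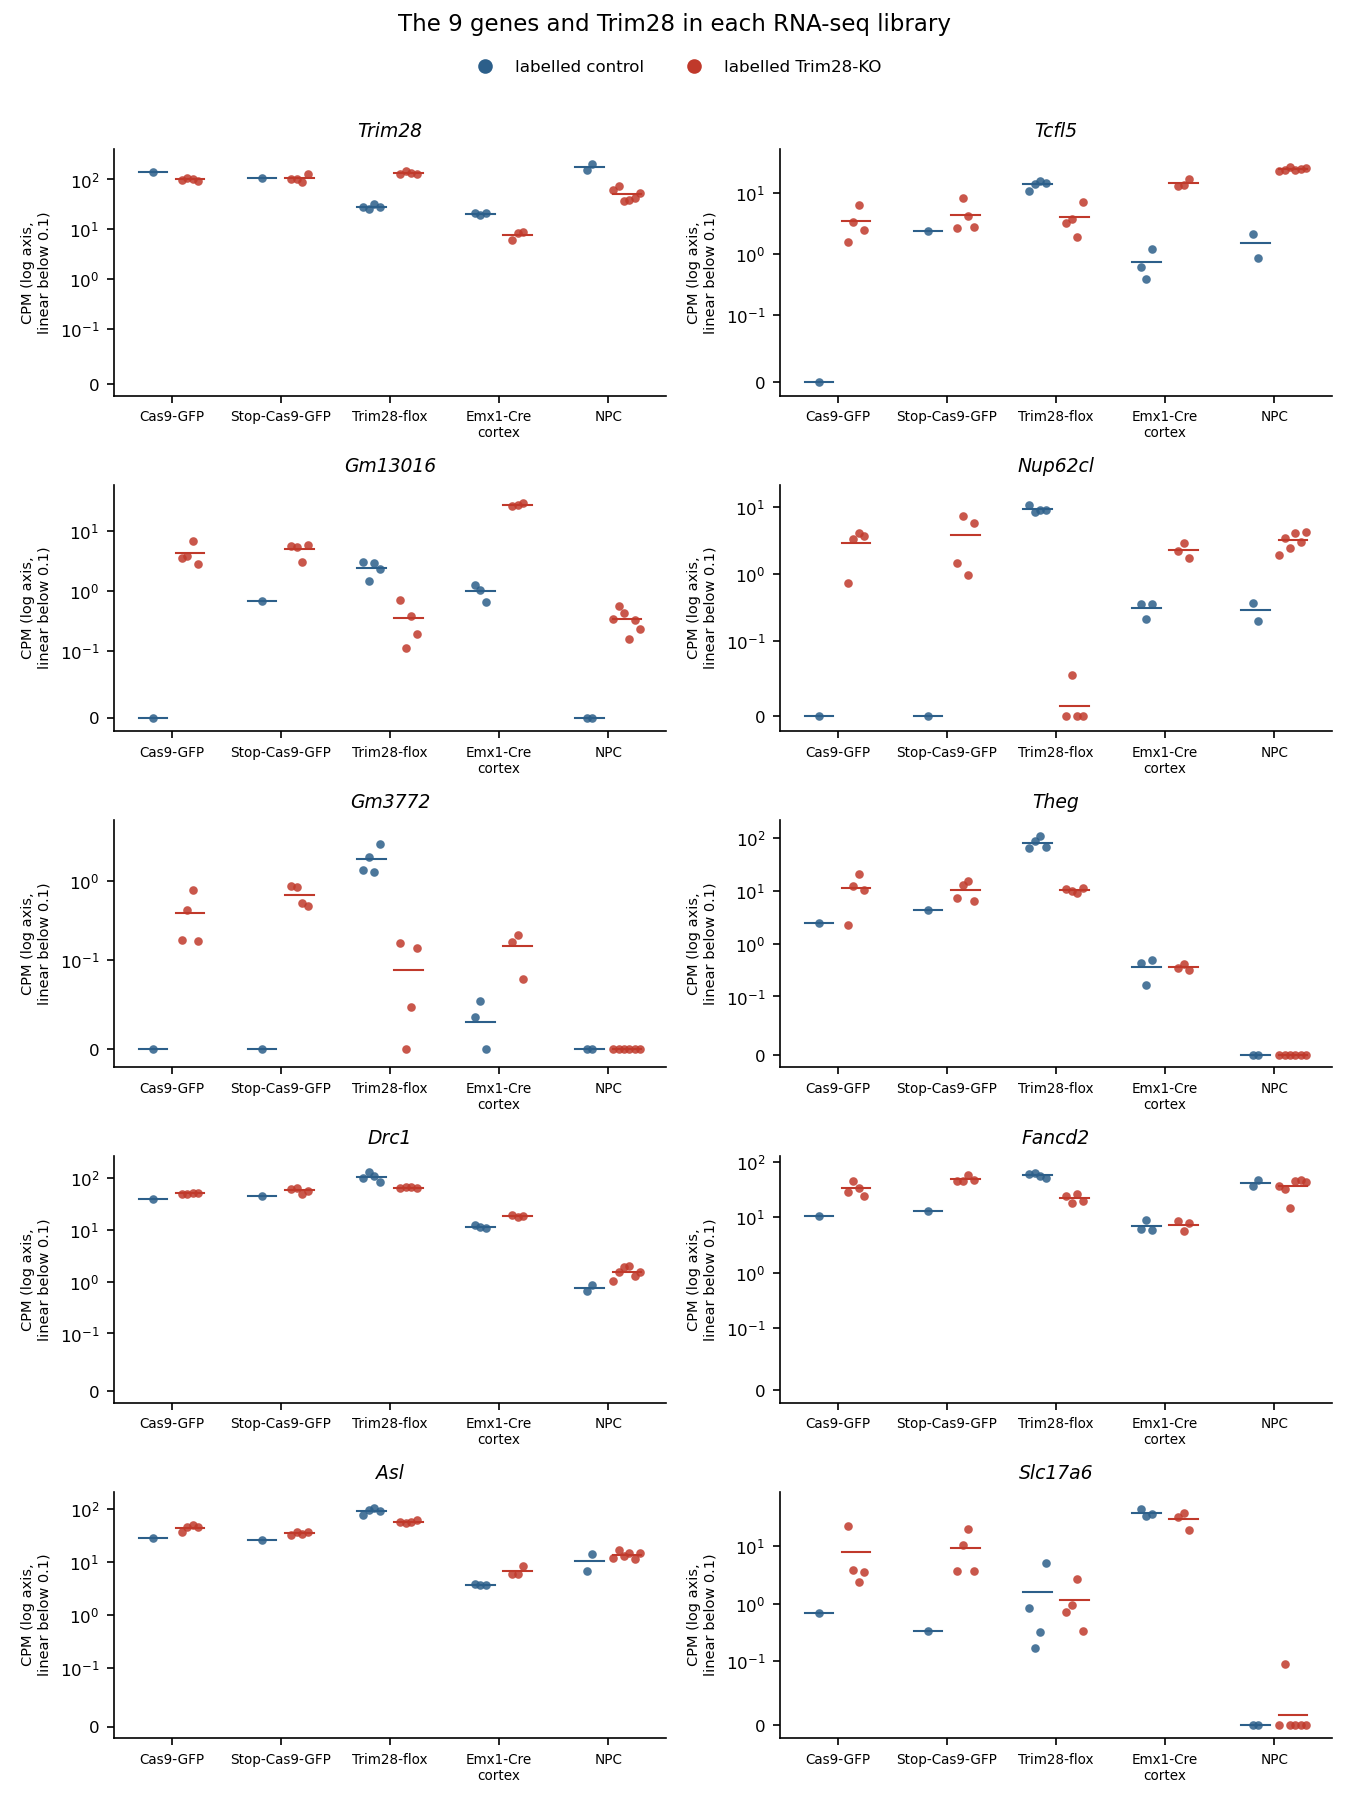
CPM of Trim28 and of the 9 genes in each of the 32 RNA-seq libraries, on a log axis that is linear below 0.1, by experiment. Points are libraries, blue for labelled control and red for labelled Trim28-KO, and bars are group means. In Trim28-flox mice Trim28 is high and the other genes except Slc17a6 are low in the libraries labelled KO, and the reverse holds in the other experiments where the groups separate.

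Tcfl5, a basic helix-loop-helix transcription factor known from the testis, was at 0 reads in the lacZ library of Cas9-GFP mice and at 1.55, 3.37, 6.30 and 2.48 CPM with guide 13, guide 3, all 3 guides and guide 4, at least 11.6-fold higher on average (against a floor of 3 reads in the lacZ library). In Stop-Cas9-GFP mice it stood at 2.64, 8.20, 4.18 and 2.75 CPM against 2.37 CPM, a mean 1.88-fold higher, with guides 13 and 4 close to the control. In Trim28-flox mice it was at 10.9, 14.2, 16.0 and 14.6 CPM in the libraries labelled control, where Trim28 was low, and at 3.27, 3.83, 1.87 and 7.07 CPM in those labelled KO. The groups did not overlap in any of the 3 lines.

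Theg, which encodes a protein of developing sperm, was the most abundant of the 9 genes per kilobase in the low-Trim28 libraries of the Trim28-flox line (52.4 RPKM). There it stood at 63.5, 89.5, 108 and 66.7 CPM, against 10.7, 9.83, 9.17 and 11.3 CPM in the libraries labelled KO, a 7.99-fold difference of means with no overlap. In Stop-Cas9-GFP mice Theg was at 7.18, 12.7, 15.4 and 6.44 CPM against 4.40 CPM with lacZ. In Cas9-GFP mice it was at 12.6, 20.8 and 10.2 CPM with guide 3, all guides and guide 4, but at 2.28 CPM with guide 13 against 2.45 CPM with lacZ, the one place among the CRISPR lines where a guide library did not lie above the control.

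Nup62cl, named for its likeness to the C-terminal part of the nuclear pore protein Nup62, was at 0 reads with lacZ in both CRISPR lines. It reached 0.730, 3.29, 4.02 and 3.63 CPM in Cas9-GFP mice (guide 13, guide 3, all guides, guide 4; at least 9.91-fold higher) and 1.48, 7.29, 0.957 and 5.68 CPM in Stop-Cas9-GFP mice (at least 11.4-fold higher). The level thus varied several-fold between guides in both lines, and guide 13 was among the lower 2 of 4 in each. The Trim28-flox libraries labelled control held it at 10.6, 8.33, 8.80 and 8.95 CPM, and those labelled KO held 1 read between the 4 of them (0.0555 CPM in one and 0 in the others). The ratio of the summed reads, scaled for depth, was 721, with an exact 95% interval of 129 to 28506 that covers counting error only.

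Drc1, a subunit of the nexin-dynein regulatory complex of motile cilia, was read at a high level in every sorted-nuclei library and changed less. It stood at 49.2, 49.5, 50.4 and 50.5 CPM in Cas9-GFP mice against 39.9 CPM, and at 61.2, 62.6, 49.8 and 56.5 CPM in Stop-Cas9-GFP mice against 44.4 CPM. Among Trim28-flox libraries it stood at 98.3, 131, 108 and 84.8 CPM (labelled control) against 63.5, 66.2, 67.9 and 62.8 CPM (labelled KO). The groups were separate in all 3 lines, with mean differences of 1.25-, 1.30- and 1.62-fold.

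Gm13016 and Gm3772 are gene models without a given function. Gm13016 was at 3.56, 3.80, 6.91 and 2.83 CPM in the guide libraries of Cas9-GFP mice against 0 reads with lacZ (at least 14.5-fold higher), and at 5.59, 5.47, 3.04 and 5.96 CPM in Stop-Cas9-GFP mice against 0.677 CPM. Among Trim28-flox libraries it stood at 3.02, 1.49, 2.92 and 2.38 CPM (labelled control) against 0.721, 0.111, 0.384 and 0.190 CPM (labelled KO), a log2 ratio of -2.80, and of -3.42 without the library ko_trim28fl_794. Gm3772 was scarcer, with 2 to 10 reads in each guide library of both CRISPR lines and 0 with lacZ, so that the bound on its change was only 1.32-fold in Cas9-GFP mice and 1.97-fold in Stop-Cas9-GFP mice. In the deeper libraries of the Trim28-flox line it was clear, at 1.36, 1.95, 1.28 and 2.83 CPM (labelled control) against 0.166, 0, 0.0480 and 0.142 CPM (labelled KO).

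Fancd2, a central protein of the Fanconi anaemia pathway for repair of DNA crosslinks, stood at 28.0, 45.7, 33.7 and 24.3 CPM in Cas9-GFP mice against 10.7 CPM. In Stop-Cas9-GFP mice it was at 45.1, 45.7, 57.9 and 46.3 CPM against 13.1 CPM, the largest fold there of the genes above 10 CPM with lacZ (3.73-fold). With floxed Trim28 it stood at 60.8, 62.7, 54.2 and 51.0 CPM (labelled control) against 24.0, 18.2, 26.5 and 19.9 CPM (labelled KO). Asl, argininosuccinate lyase, makes arginine in the urea cycle. It was at 37.4, 46.1, 50.8 and 46.8 CPM against 28.8 CPM in Cas9-GFP mice and at 33.2, 37.2, 34.4 and 37.4 CPM against 26.5 CPM in Stop-Cas9-GFP mice. With floxed Trim28, Asl was at 79.8, 97.0, 107 and 91.1 CPM (labelled control) against 57.8, 55.8, 57.5 and 63.5 CPM (labelled KO). Neither gene had overlapping groups in any of the 3 lines.

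Slc17a6 encodes VGLUT2, the transporter that loads glutamate into synaptic vesicles in thalamic and other subcortical neurons. It differed from the other 8 genes in how it varied. In Cas9-GFP mice it stood at 22.2 CPM with guide 13 but at 3.89, 2.43 and 3.54 CPM with guide 3, all guides and guide 4, against 0.687 CPM with lacZ. In Stop-Cas9-GFP mice it stood at 19.4 CPM with all guides, 10.4 CPM with guide 3 and 3.69 CPM with each of guides 13 and 4, against 0.338 CPM (3 reads) with lacZ, a ratio of summed reads of 28.6 with an exact 95% counting interval of 9.71 to 139. The Trim28-flox groups overlapped, at 0.850, 0.172, 0.319 and 5.15 CPM (labelled control) and 0.721, 0.944, 2.69 and 0.332 CPM (labelled KO). The guide with the high library was thus a different one in each CRISPR line, and single libraries set the means. The log2 ratio of guides to lacZ was 3.54 in Cas9-GFP mice and 2.26 without the guide 13 library, and 4.78 in Stop-Cas9-GFP mice and 4.13 without the library with all guides. In Trim28-flox mice it was -0.47, and 1.39 without ctrl_trim28fl_822. A list of 8 genes of thalamic neurons, among them Tcf7l2, Lef1, Prkcd and Ntng1, was highest in the same libraries of the CRISPR lines. They summed to 156 CPM in the guide 13 library of Cas9-GFP mice, where Plekhg1 alone gave 77.6 CPM, and to 22.6 to 26.2 CPM in the other 4 libraries of that line. They summed to 130 CPM in the Stop-Cas9-GFP library with all guides (Ntng1 48.5 CPM) and to 22.0 to 45.0 CPM in the other 4. In the Trim28-flox library ctrl_trim28fl_822, labelled control, which had the highest Slc17a6 level of its line, they summed to 61.7 CPM, and to 58.6 CPM in the library ctrl_trim28fl_799, where Slc17a6 was at 0.319 CPM. None of the 8 thalamic genes was at 0 in the guide 13 library, and 1 was at 0 in the Stop-Cas9-GFP library with all guides. Of the 8, 1 lay above lacZ in every guide library of Cas9-GFP mice and 2 of Stop-Cas9-GFP mice. Slc17a7, the transporter of the same kind in cortical neurons, averaged 55.6 CPM with guides against 13.9 CPM with lacZ in Cas9-GFP mice, not above in every library. The part of such neurons in the Slc17a6 levels was not tested.

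**Figure D2:**
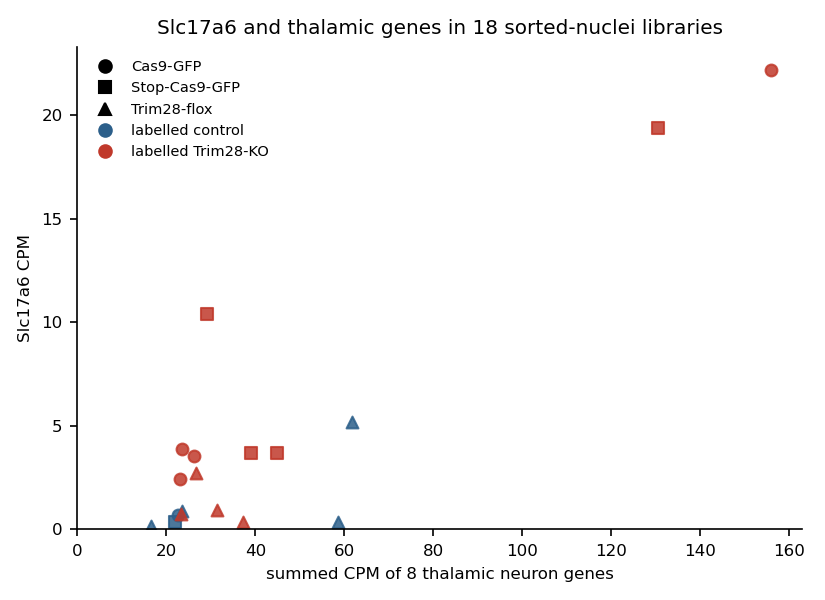
Slc17a6 CPM against the summed CPM of 8 thalamic neuron genes in the 18 sorted-nuclei libraries; circles, squares and triangles are the 3 lines and red is labelled Trim28-KO. The 2 libraries with the highest Slc17a6 (22.2 and 19.4 CPM) are those with the highest thalamic sums, 156 and 130 CPM.

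Over the 9 genes, every guide library lay above the control for 8 in Cas9-GFP mice and for 9 in Stop-Cas9-GFP mice. With a single control library this holds for 23.5% of the 19004 genes tested in Cas9-GFP mice and for 16.3% of 18777 in Stop-Cas9-GFP mice. With 4 Trim28-flox libraries on each side, all libraries labelled KO lay below all labelled control for 8 of the 9 genes (all but Slc17a6) and above for 0, which held for 1.72% and 1.65% of 17102 genes. Since these contrasts chose the genes, the counts describe the choice. Per kilobase, the order in the low-Trim28 libraries of the Trim28-flox line was Theg (52.4 RPKM), Drc1 (39.3), Asl (19.4), Fancd2 (7.21), Tcfl5 (4.40), Nup62cl (4.10), Gm13016 (1.43), Gm3772 (0.983) and Slc17a6 (0.301).

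Apart from Slc17a6, the genes also varied alike from library to library. With each gene centred on its mean per line, Pearson's r of log2 CPM was taken over the 18 libraries against 16938 genes. These libraries share the group differences that chose the genes, so the likeness restates that choice and is no added support. The nearest genes to Nup62cl were Asl (r = 0.929), Mkrn3 (0.924) and Gm3772 (0.911). Those to Asl were Nup62cl (0.929), Theg (0.924) and Gm3772 (0.885). Theg was nearest to Asl (0.924), Nup62cl (0.885) and Gm3772 (0.874), and Gm3772 to Nup62cl (0.911), Asl (0.885) and Theg (0.874). Drc1 was nearest to Nup62cl (0.882), Zfp110 (0.844) and Asl (0.842). Gm13016 was nearest to Zfp640 (0.902), Fancd2 (0.892) and Asl (0.853), and Fancd2 to Gm13016 (0.892), Zfp640 (0.886) and Sohlh1 (0.871). Tcfl5 was nearest to Tatdn3 (0.898), Asl (0.858) and Melk (0.850). Slc17a6 had none of the other 8 among its nearest genes, which were Cbln1 (0.887), Gm3248 (0.861) and Slc6a7 (0.857).

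In the cortex, Trim28 is lost during development rather than in the adult, and the question is whether the same genes were higher there. Of 16271 genes tested, 140 (0.86%) were higher in Trim28-KO and 76 (0.467%) lower (called at an edgeR adjusted p below 0.05 where the log2 fold change passed 0.5 either way), Trim28 among the latter (log2 fold change -1.39, adjusted p 3.78e-04). Leaving out 1 library moved these numbers to between 81 (without control 77) and 219 (without Trim28-KO 76) higher and between 23 and 125 lower (without the same libraries). Of the 9 genes 5 were called, all higher, and 2 had too few reads to be tested. As the genes may have been picked with this contrast in view, their p-values are no independent support. Nup62cl and Tcfl5 moreover passed the filter on low counts through the Trim28-KO libraries alone, so that nothing is read from their calls. Gm13016 rose from 1.27, 1.03 and 0.666 CPM in control to 26.2, 26.9 and 29.6 CPM in Trim28-KO (log2 fold change 4.77, SE 0.19, adjusted p 1.24e-07). Tcfl5 rose from 0.616, 0.380 and 1.20 CPM to 13.2, 13.6 and 17.3 CPM (4.29, SE 0.27, adjusted p 2.75e-06). Nup62cl rose from 0.362, 0.217 and 0.355 CPM to 2.21, 2.84 and 1.74 CPM (2.83, SE 0.32, adjusted p 5.23e-04). The groups did not overlap for these 3 genes. Gm13016, which passed the filter in the control libraries too, was called without any one library. Drc1 rose from 12.2, 11.4 and 10.7 CPM to 19.2, 17.3 and 18.2 CPM (0.67, SE 0.12, adjusted p 0.0121) and Asl from 3.91, 3.69 and 3.73 CPM to 5.96, 6.09 and 8.39 CPM (0.83, SE 0.17, adjusted p 0.0339). Neither of these had overlapping groups, but each lost its call when a control library was left out. Drc1 then had adjusted p 0.0672, 0.0851 and 0.11 without control 64, 65 and 77, and Asl 0.152, 0.138 and 0.181. Asl also lost it without Trim28-KO 73 (0.0645).

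Fancd2, 2.58-fold apart in the adult Trim28-flox nuclei, was at 6.20, 8.74 and 5.90 CPM in control cortex and 8.51, 5.58 and 7.76 CPM in Trim28-KO cortex, with overlapping groups (log2 fold change 0.07, SE 0.20, edgeR adjusted p 0.999). Slc17a6 was at 43.6, 33.1 and 36.5 CPM in control and 31.4, 37.6 and 18.7 CPM in Trim28-KO (-0.36, SE 0.20, adjusted p 0.692). Theg, the most abundant of the 9 per kilobase in the low-Trim28 libraries of the Trim28-flox line, was at 0.435, 0.163 and 0.488 CPM in control and 0.341, 0.413 and 0.317 CPM in Trim28-KO cortex, 3 to 12 reads a library, and was not tested. Gm3772 had 1, 1 and 0 reads in control and 3, 4 and 1 in Trim28-KO, a ratio of 5.52 with an exact 95% counting interval of 1.10 to 53.4. By level, Gm13016 led the 9 genes in Trim28-KO cortex (16.0 RPKM), ahead of Drc1 (6.80), Slc17a6 (5.41) and Tcfl5 (4.64).

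In NPCs, 29 of 16469 genes (0.176%) were higher in Trim28-KO and 3 (0.0182%) lower by the same rule. Without either lacZ culture only 2 were called higher and 0 lower, and without 1 Trim28-KO culture 13 to 47 higher (47 without npc_ko_g3_845) and 0 to 11 lower. Of the 9 genes 5 could be tested. Tcfl5 and Nup62cl were called. Both were also called in cortex, but there they passed the filter on low counts through the Trim28-KO libraries alone, so the repeat is no support. In NPCs Nup62cl again passed it through the Trim28-KO cultures alone, so nothing is read from its call. Tcfl5 passed it also through the lacZ cultures. Tcfl5 stood at 2.15 and 0.845 CPM in the lacZ cultures and between 23.4 and 26.8 CPM (median 25.0) in the 6 Trim28-KO cultures (log2 fold change 4.07, SE 0.34, edgeR adjusted p 0.00361), a narrow range over 3 guides. The log2 fold change was 4.88 without npc_ctrl_842. Nup62cl stood at 0.376 and 0.199 CPM with lacZ and between 1.89 and 4.14 CPM (median 3.23) in Trim28-KO (3.43, SE 0.48, adjusted p 0.0310). Both groups were far apart, yet with 2 controls the call on Nup62cl was lost without either of them (adjusted p 0.291 without npc_ctrl_842, 0.459 without npc_ctrl_867) and without any of 4 of the 6 Trim28-KO cultures (0.0793 to 0.0899). Gm13016, with 0 reads in the lacZ cultures and 3 to 8 reads in each Trim28-KO culture, was at least 2.22-fold higher and was not tested. Drc1 was at 0.644 and 0.845 CPM with lacZ and 1.03 to 1.97 CPM in Trim28-KO, without overlap but not called (1.05, SE 0.36, adjusted p 0.73). Fancd2 is used by dividing cells and was well read in NPCs, at 36.6 and 46.8 CPM with lacZ and 14.5 to 46.1 CPM in Trim28-KO (-0.21, SE 0.36, adjusted p 1.00). Asl was at 6.93 and 14.6 CPM with lacZ and 11.6 to 17.4 CPM in Trim28-KO (0.38, SE 0.29, adjusted p 1.00). Theg and Gm3772 had 0 reads in all 8 cultures, which allows at most 0.149 to 0.288 CPM per culture (3 reads), and Slc17a6 had 1 read in all.

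**Figure D3:**
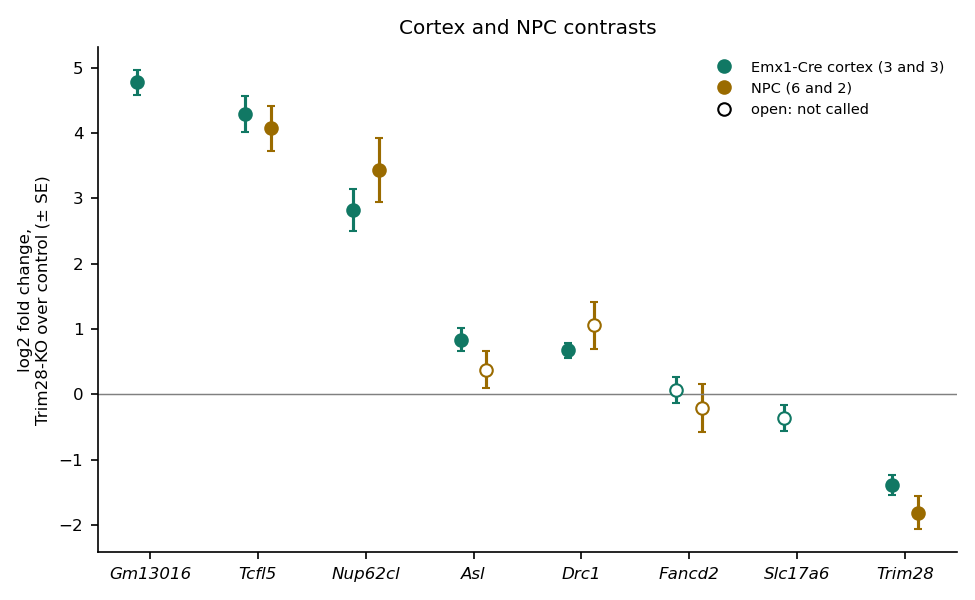
log2 fold change of Trim28-KO over control with its SE in cortex (green, 3 and 3 animals) and in NPCs (brown, 6 and 2 cultures) for the genes that could be tested; filled points were called by the rule given in the text. Tcfl5 stands near 4 in both (4.29 and 4.07).

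The NPC cultures carry 2 number series in their names, and cultures of a series deviated together, so the block of number series was fitted as well. With this block Tcfl5 gave 4.10 (edgeR adjusted p 6.41e-04) and Nup62cl 3.40 (adjusted p 0.0117), and no further member was called, while 136 genes in all were called in place of 32. Nup62cl was still tested through the Trim28-KO cultures alone, so nothing is read from its call with the block either. The change in NPCs was then set against that in cortex in 1 model. The difference was called for 21 of 18726 genes (0.112%) and for 0 of the 7 genes that could be tested (edgeR). Of these 7, 0 had an unadjusted p under 0.05. They include Gm13016, with 0 reads in the lacZ cultures, and Slc17a6, with 1 read over the Trim28-KO cultures and 0 with lacZ. Neither could be tested in NPCs alone, so nothing is read from their lack of a call. The same holds for Nup62cl, which passed the filter on low counts through Trim28-KO alone in both experiments. Tcfl5 did so in cortex. On the log2 scale, NPC minus cortex, the difference was 0.65 (SE 0.59) for Nup62cl and -0.19 (SE 0.46) for Tcfl5. It was 0.43 (SE 0.32) for Drc1 and -0.42 (SE 0.35) for Asl, so that differences of about these errors could not be seen. DESeq2 also called 0. Experiment and tissue cannot be told apart here.

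Single nuclei gave the UMIs of each gene by cell type in cortex. After filtering, 13671 of 14296 nuclei remained, and 36 barcodes occurred in more than 1 library. They fell into 14 clusters, named by markers as excitatory neuron-like (8175 nuclei), inhibitory neuron-like (1683), oligodendrocyte-like (1308), astrocyte-like (1185), microglia-like (691), oligodendrocyte progenitor-like (453), leptomeningeal-like (130) and mural-like (46). UMIs were summed per animal and type, with levels as CPM of all UMIs in that type, and the 2 Trim28-KO animals (60, 73) were compared with the 2 controls (64, 65). These animals also gave 4 of the 6 cortex libraries, so the values are a second reading of them and not new animals. Gm3772 is not among the features counted. Of 14 pairs of gene and type that could be tested, 4 were called, all higher in Trim28-KO (edgeR, adjusted p under 0.05). For 3 of these 4, Gm13016 and Tcfl5 in excitatory neuron-like and Tcfl5 in oligodendrocyte-like nuclei, the filter on low counts was passed through the Trim28-KO animals alone, so these calls are no support of their own. The same holds for the tests of Nup62cl, Tcfl5 and Drc1 in astrocyte-like nuclei, also where a library was left out. Trim28 in excitatory neuron-like nuclei had 166 and 178 UMIs in Trim28-KO and 190 and 160 in control, not called (log2 fold change -0.30, adjusted p 0.302). A tag of the 3' end may lie outside the excised part and then checks nothing.

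The genes differed in how their UMIs were spread over cell types. Over the 4 animals, excitatory neuron-like nuclei held 78.3% of all UMIs and astrocyte-like nuclei 3.63%. Of the UMIs of Theg 96.8% (120 of 124) came from excitatory neuron-like nuclei, as did 97.0% of those of Gm13016 (657 of 677), 95.7% of Slc17a6 (890 of 930) and 94.4% of Drc1 (3287 of 3483). The share was 89.2% for Fancd2 (528 of 592), 89.3% for Tcfl5 (695 of 778) and 74.8% for Asl (551 of 737), which is close to the share of all UMIs. Nup62cl had 67.6% of its 37 UMIs in astrocyte-like and 27.0% in excitatory neuron-like nuclei. The shares mix both groups of animals. Droplets also take up free RNA. As a measure of this background, Slc17a7, a marker of excitatory neurons, stood in inhibitory neuron-like nuclei at 9.34% to 9.96% of its CPM in excitatory neuron-like nuclei of the same animal. In oligodendrocyte-like nuclei Slc17a7 stood at 18.2% to 42.8% and in astrocyte-like nuclei at 15.3% to 34.8%, these nuclei holding fewer UMIs each.

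The excitatory neuron-like class held 6 clusters whose shares differed between the groups. Cluster 1 gave 1965 of the 4596 nuclei in Trim28-KO and 1101 of the 3579 in control (42.8% and 30.8%), cluster 5 gave 240 and 542 (5.22% and 15.1%), and cluster 0 gave 1984 and 1669 (43.2% and 46.6%). In excitatory neuron-like nuclei, where 3.62% of 16250 genes were called higher, Gm13016 held 335 and 306 UMIs in the Trim28-KO animals (12.8 and 11.6 CPM) and 13 and 3 in controls (0.586 and 0.131), with a log2 fold change of 5.03 (SE 0.39, adjusted p 0.00313), which was 6.41 without control 64 and 4.34 without control 65. It was higher in Trim28-KO within the clusters too, at 11.4 and 9.16 against 0.0958 and 0.0983 CPM in cluster 0, at 12.1 and 12.5 against 0.696 and 0.252 CPM in cluster 1, and at 26.7 and 21.2 against 0.679 and 0 CPM in cluster 5. Inhibitory neuron-like nuclei of the same Trim28-KO animals held 3 and 3 (0.730 and 0.691 CPM), which at 5.72% and 5.98% of the excitatory level is not above that background, and astrocyte-like nuclei 5 and 0 (4.08 and 0 CPM, or 31.9% and 0%), which is not above the range of Slc17a7 there. Tcfl5 held 332 and 333 UMIs in excitatory neuron-like nuclei of Trim28-KO (12.7 and 12.6 CPM) and 21 and 9 in control (0.946 and 0.394), with 4.19 (SE 0.30, adjusted p 0.00252), which was 4.92 without control 64. In oligodendrocyte-like nuclei it stood at 19.2 and 18.4 CPM (10 and 8 UMIs) against 0.674 and 0 (1 and 0 UMIs), where 1.85% of 8041 genes were called higher (5.03, SE 0.92, adjusted p 0.00201; 6.56 without control 64). That was 152% and 147% of the excitatory level of the same Trim28-KO animals. In astrocyte-like nuclei it held 27 and 13 UMIs against 0 and 3 (3.43, SE 0.81, adjusted p 0.0542, not called). Without control 64 this became 2.15 (adjusted p 0.0474) and without control 65 it became 7.36 (adjusted p 4.4e-05). In inhibitory neuron-like nuclei Tcfl5 held 5 and 3 UMIs against 0 and 0, at 9.62% of the excitatory level or less in Trim28-KO, which again is not above the background. In oligodendrocyte progenitor-like nuclei it stood at 7.83 and 10.2 CPM in Trim28-KO and 7.16 and 5.28 CPM in control, with only 2 to 4 UMIs in each animal, and was not tested.

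Nup62cl was read most in astrocyte-like nuclei, where the Trim28-KO animals held 12 and 11 UMIs (9.79 and 9.29 CPM) and the controls 1 and 1 (0.763 and 1.24), with a log2 fold change of 3.18 (SE 0.74) and an adjusted p of 0.0505, not called. In this type 0.923% of 10297 genes were called higher. Excitatory neuron-like nuclei, with over 20 times as many UMIs in all, held 6 and 2 against 1 and 1. Drc1 was most abundant in excitatory neuron-like nuclei, with 40.4 and 41.4 CPM in Trim28-KO and 25.9 and 24.4 in control (0.66, SE 0.11, adjusted p 0.0220). Within cluster 0 it stood at 27.7 and 28.2 against 16.6 and 19.0 CPM and within cluster 1 at 62.5 and 58.9 against 45.0 and 39.0 CPM, while in cluster 5 the groups overlapped (20.2 and 14.2 against 22.4 and 15.1 CPM). It also stood at 19.6 and 19.4 CPM against 7.63 and 4.97 in astrocyte-like nuclei (1.54, SE 0.41, adjusted p 0.0898, not called), which is 48.5% and 46.9% of its excitatory level in Trim28-KO and 29.5% and 20.4% in control, the latter within the background range. It stood at 9.00 and 7.61 against 7.90 and 4.09 in inhibitory neuron-like nuclei, with 0.45 (SE 0.36, not called, and 0% of 12690 genes were called higher there). Asl in excitatory neuron-like nuclei was at 6.90 and 6.57 against 5.23 and 3.50 CPM (0.58, SE 0.22, adjusted p 0.144), and Theg at 1.83 and 1.17 against 1.17 and 0.656 (0.67, SE 0.39, adjusted p 0.301). The groups overlapped for Fancd2 (4.95 and 5.85 against 5.41 and 5.38 CPM) and Slc17a6 (8.96 and 10.4 against 7.34 and 9.49 CPM). Asl gave a log2 fold change of -0.45 (SE 0.44) in astrocyte-like and -0.30 (SE 0.35) in inhibitory neuron-like nuclei, neither called. The calls in excitatory neuron-like nuclei were lost without the filter on low counts (adjusted p 0.125 for all 3 genes) and without either control animal (0.0597 to 0.111), and that of Drc1 also without either Trim28-KO animal (0.129 and 0.188). The call of Tcfl5 in oligodendrocyte-like nuclei was lost without control 64 (0.0547) or 65 (0.235) and with DESeq2 (adjusted p 0.0671), and could not be tested without either Trim28-KO animal.

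**Figure D4:**
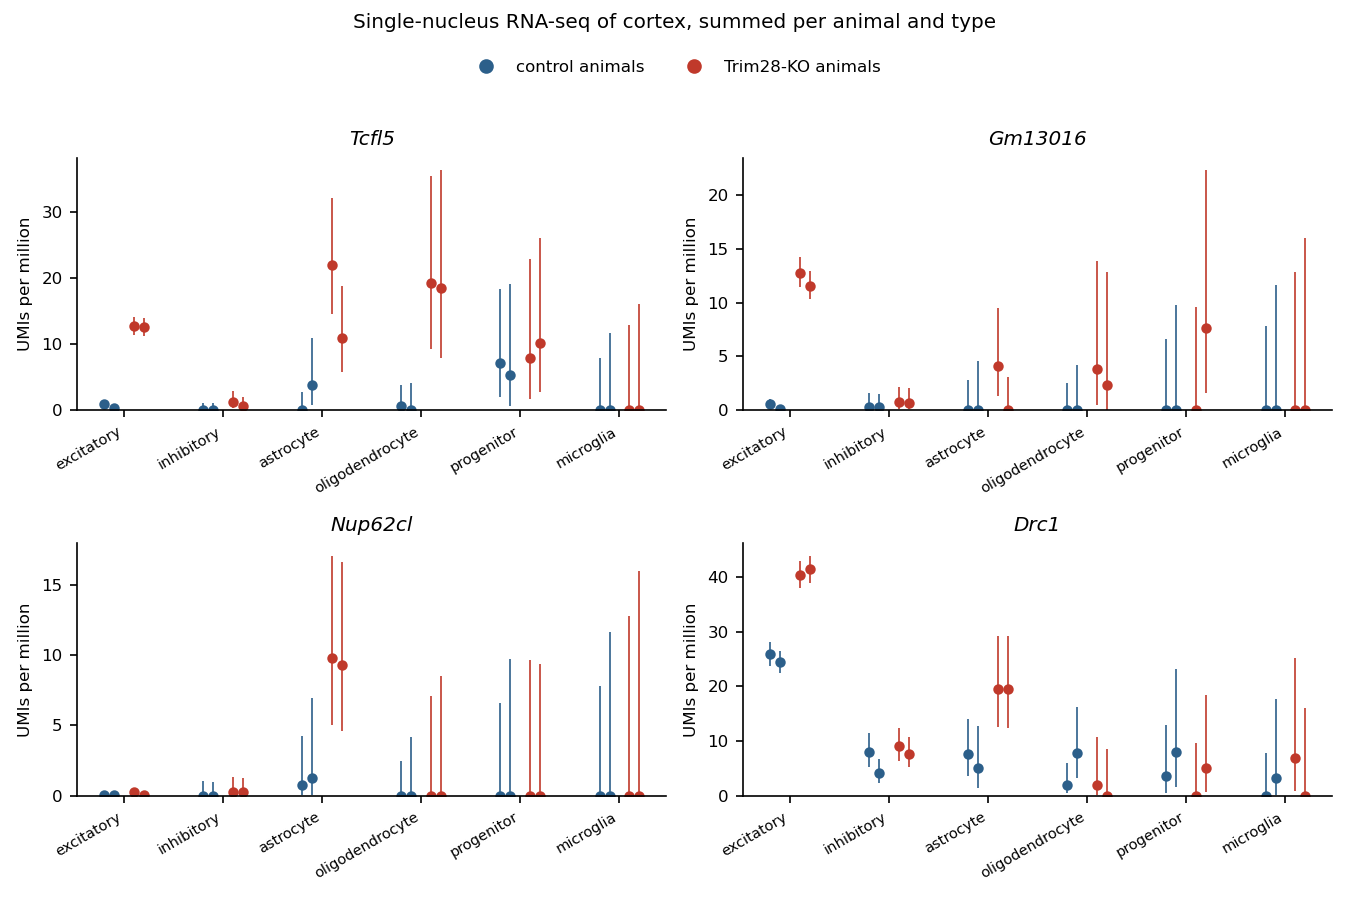
CPM of UMIs in nuclei of 6 types for 4 genes, summed per animal (blue, 2 controls; red, 2 Trim28-KO animals); lines are exact 95% Poisson intervals, which cover counting error only, and progenitor stands for oligodendrocyte progenitor-like. In Trim28-KO animals Gm13016 is highest in excitatory neuron-like nuclei (11.6 and 12.8 CPM) and Nup62cl in astrocyte-like nuclei (9.29 and 9.79 CPM).

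Transposable elements were read around each gene, since Trim28 is known for silencing them. The table of single copies held 928 copies within 10 kb of the 9 genes, 595 of them inside a gene. In cortex 5 had enough reads to be tested, and all 5 were higher in Trim28-KO, where 2.67% of 14556 copies tested were called higher. All 5 lie in or beside Gm13016, already called as a gene, and all 5 passed the count filter through the Trim28-KO libraries alone, so nothing is read from their number. The copy in its promoter window, B4A_dup27578, held 126, 114 and 83 reads in Trim28-KO and 8, 3 and 2 in control (log2 fold change 5.06, SE 0.30, adjusted p 4.21e-14). MTE2a_dup3933 (chr4:140382148-140382541, forward strand), inside the gene, stood at 12.5, 10.9 and 13.1 CPM against 0.471, 0.380 and 0.444 CPM (4.78, SE 0.22). MTEa_dup5123, MIRb_dup11948 and ID_B1_dup26228 gave 4.55 (SE 0.42), 4.97 (SE 0.49) and 5.77 (SE 0.75). The gene itself gave 4.77. The value of ID_B1_dup26228 rests on 57 reads in Trim28-KO and 1 in control, and differences from the gene were not tested. Reads over a copy that lies in an exon count for both. B4A_dup27578 ends before the start of the gene in the annotation used for counting, so this does not hold for it there. RefSeq, however, starts the gene at chr4:140380467, inside this copy. Reads on the copy may therefore be reads of the gene's own transcript, which was not tested.

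In NPCs 17 copies could be tested and 5 were called higher, against 0.55% of 35091 copies. All 5 lie inside Tcfl5, already called as a gene, and all 5 passed the count filter through the Trim28-KO cultures alone, so nothing is read from their number either. MERVL_2A-int_dup454 (chr2:180631764-180632805, forward strand) held 17 to 35 reads in each of the 6 Trim28-KO cultures and 0 in both lacZ cultures. MERVL_2A-int_dup455, RLTR19-int_dup309 and RLTR53_Mm_dup64 are annotated on the forward strand as well, opposite to Tcfl5, and held 62, 67 and 134 reads over the Trim28-KO cultures against 0, 0 and 1 with lacZ. B1F1_dup2653, on the strand of the gene, held 56 against 0. In cortex, where Tcfl5 rose as much, MERVL_2A-int_dup454 held 2, 0 and 4 reads in Trim28-KO and 0, 1 and 0 in control. In the adult nuclei it had 10 reads in the lacZ library of each CRISPR line and 0 to 28 in the guide libraries, so that those groups overlapped. B4A_dup27578 did lie with Gm13016 in Cas9-GFP mice, at 1.37, 2.16, 3.57 and 1.33 CPM against 0 with lacZ. In Stop-Cas9-GFP mice it stood at 0.317, 1.73, 2.26 and 5.11 CPM against 0.564 CPM, and in Trim28-flox mice it had at most 13 reads in a library. No copy within 10 kb of Nup62cl, Theg, Gm3772, Drc1, Asl or Slc17a6 had enough reads to be tested in cortex or NPCs, and 2 near Fancd2 were tested in NPCs and not called.

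**Figure D5:**
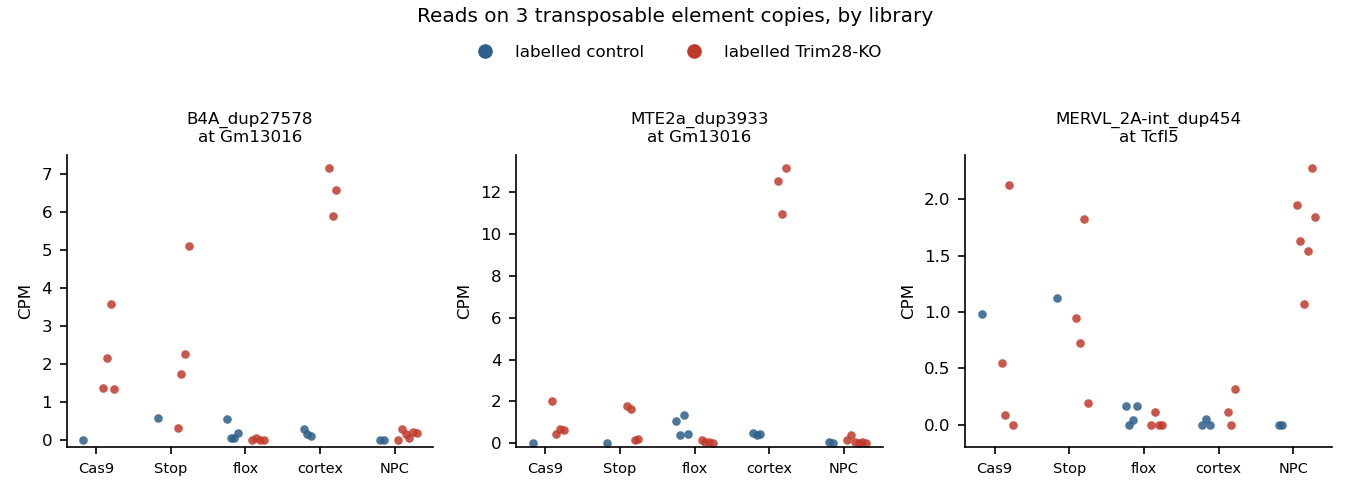
CPM of reads on 2 transposable element copies at Gm13016 and 1 inside Tcfl5, by library and experiment (Cas9 and Stop are Cas9-GFP and Stop-Cas9-GFP mice); blue is labelled control, red labelled Trim28-KO. The copies at Gm13016 are high in Trim28-KO cortex (5.88 to 7.15 and 10.9 to 13.1 CPM), that in Tcfl5 in Trim28-KO NPCs (1.07 to 2.28 CPM).

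Genes of the same pathways were taken from lists of known members. None of the 24 further Fanconi anaemia genes tested in cortex and 25 in NPCs was called, none of 17 and 16 genes of motile cilia, none of 10 and 7 of the urea cycle and arginine, none of 19 and 19 of the nuclear pore and none of 6 and 4 other vesicular transmitter transporters (edgeR). At an unadjusted p under 0.05 stood 2, 4, 0, 3 and 0 of them in cortex and 0, 0, 1, 0 and 0 in NPCs, where 9.15% and 4.57% of all genes tested did. The list medians of the log2 fold change lay between 0.01 and 0.13 in cortex and between -0.20 and 0.07 in NPCs, beside medians of all genes of 0.01 and 0.01. Of 36 testis and germline genes, 7 could be tested in each. One was called in cortex, Piwil1, a partner of piRNAs in spermatids, with 1.03 CPM in Trim28-KO and 0.266 CPM in control (log2 fold change 1.94, SE 0.38, adjusted p 0.0234), and 0 in NPCs. Piwil1 too passed the filter on low counts through the Trim28-KO libraries alone, so nothing is read from its call, and 0.86% of all genes were called higher. In the adult Trim28-flox nuclei, 0 of the 25 Fanconi anaemia genes and 0 of the 15 urea cycle genes had separate groups in either direction, nor did any of the 36 germline genes, and 1 of 26 genes of motile cilia and 1 of 20 of the nuclear pore were lower in the libraries labelled KO. Of all 17102 genes tested there, 1.72% had every library labelled KO below every control and 1.65% above. These 17102 genes had passed the filter on low counts, whereas the lists were counted whole. A listed gene without reads could not separate, so the 0 of 36 does not show that germline genes were unchanged.

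Marker lists of other cells gave 2 further calls in cortex. Fabp7, an astrocyte and progenitor lipid carrier, was higher in Trim28-KO (48.2 against 23.8 CPM, log2 fold change 1.02, SE 0.14, adjusted p 0.0019), alone of 8 neural progenitor genes. Col1a2, a collagen of the meninges, was lower (2.86 against 6.02 CPM, -1.08, SE 0.21, adjusted p 0.0244), alone of 5 leptomeningeal genes, of which 4 had an unadjusted p under 0.05 (median -0.83). No gene was called of the astrocyte, oligodendrocyte, microglial, endothelial, mural, ependymal or choroid plexus lists. The 6 oligodendrocyte genes summed to 2168 CPM in Trim28-KO and 2681 CPM in control (median log2 fold change -0.28). In NPCs no gene of the marker lists was called. At an unadjusted p under 0.05 (edgeR), Pdgfra (10.9 against 49.6 CPM, log2 fold change -2.18), Cspg4 (-0.85), Gad1 (-1.19), Nxph1 (-0.91) and Snap25 (-1.46) were lower in Trim28-KO cultures. Syt1 (1.61) was higher, and Gad2 (1.15, not under 0.05) went the other way from Gad1. The part of such shifts in the levels of the 9 genes was not tested.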

How the data were processed

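Raw read counts per gene and per transposable element copy were deposited by the authors: reads of stranded poly-A libraries were aligned with STAR 2.6.0 to GRCm38, and uniquely mapped reads were counted with featureCounts 1.6.3 (GENCODE vM19). Gene counts from TEtranscripts share reads that map to several places. Nuclei were deposited as UMI counts from Cell Ranger 3.0. Among the columns of copies, 6 matched no sample and were not used. The H3K9me3 table given here covers 1 element family and was not used here.

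The members, lists and tests were chosen with earlier results of these data known. Genes were tested with edgeR 4.0.16 (filterByExpr, TMM, two-sided quasi-likelihood test, Benjamini-Hochberg over all genes), with DESeq2 1.42.0 as an alternative. In nuclei a call needed only the adjusted p. Where nothing says that samples came from separate animals or cultures, p measures only the spread between samples. On simulated cortex counts (16088 genes) 96% and 100% of genes changed by 1 and 2 on the log2 scale were recovered, and on simulated NPC counts (16208 genes) 20% and 87%. False calls were 4.85% of calls in cortex and 8.55% in NPCs with edgeR, and 3.94% and 24.5% with DESeq2. Nuclei within 3 median absolute deviations of their library's log10 number of genes were clustered with Seurat 5.3.0 (2000 variable genes, 20 components, resolution 0.1) and named by fixed markers. No doublet caller was run, and a type needed 20 nuclei in each animal to be tested. Floors are 3 reads, and intervals and floors cover counting error only. Alternatives were other size factors, no filter, TEtranscripts counts, leaving out each replicate, and the culture block. Where 1 control was left, it was assumed to vary like the other group. The difference between the NPC number series was taken for each guide and for lacZ. These differences were alike (r 0.532 to 0.706 in their 6 comparisons, over 16469 genes), which is taken as pairing. The NPC tests are without the block unless it is named.

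The text names the 9 genes and Trim28, up to 4 called genes of each list, the 3 genes most alike each member, called copies within 10 kb, and promoters that the reference tables hold. Other list genes named in the text, as most abundant or as shifted between groups, were chosen after their values were seen.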

Additional observations from a re-analysis of the deposited data

Results flagged for a closer look

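There were 6 values that stood apart from the rest of their group, by the gap to the nearest value as a share of the range, in 48 groups of gene and condition tested, and chance flags about 1 in 20. In the Stop-Cas9-GFP library with all guides, Fancd2 was the highest at 57.9 CPM and Gm13016 the lowest at 3.04 CPM. The same library had the highest Slc17a6 of its line. Slc17a6 stood apart in 3 groups, at 22.2 CPM with guide 13 in Cas9-GFP mice, at 5.15 CPM in the Trim28-flox library ctrl_trim28fl_822, and at 0.0960 CPM, which is 1 read, in the NPC culture npc_ko_g13_876. Nup62cl stood apart at 0.0555 CPM in the Trim28-flox library ko_trim28fl_795, which again is 1 read.

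By label, 8 genes and Trim28 went opposite ways in the Trim28-flox line and in at least one other experiment, with every library labelled KO on one side of every control. The log2 ratio of the libraries labelled KO to those labelled control in the Trim28-flox line was 2.26 for Trim28, -9.37 for Nup62cl, -4.38 for Gm3772, -3.00 for Theg, -2.80 for Gm13016, -1.80 for Tcfl5, -1.37 for Fancd2, -0.70 for Drc1 and -0.68 for Asl. Set against the Trim28 level in place of the label, the libraries with low Trim28 held the higher levels of these 8 genes in this line, as in Cas9-GFP mice (all but Theg, where 1 guide library did not). In Stop-Cas9-GFP mice the 8 genes were higher in the guide libraries, where Trim28 RNA lay on both sides of the control. The difference between lines was not tested, and these contrasts chose the genes.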

How the results depend on the processing

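Other size factors, no filter on low counts, TEtranscripts gene counts and DESeq2 left the number of the 9 genes called at 5 in cortex and 2 in NPCs, and the replicate block of NPC number series also left 2. Leaving out 1 library gave 3 to 5 in cortex, 1 to 2 in NPCs and 1 to 2 pairs of gene and type in nuclei in place of 4. Of these 4, Gm13016 and Tcfl5 in excitatory neuron-like nuclei were still called without Trim28-KO 60 or 73, and none without control 64 or 65, where Tcfl5 (both) and Drc1 (without 64, adjusted p 0.0333) in astrocyte-like nuclei were called instead. The number for the difference between cortex and NPCs was 0 under all alternatives run, with the limits on that test given above. By label, the number of higher group means in the sorted nuclei (18 of 27 pairs of gene and line) went to 19 without the library ctrl_trim28fl_822. Without it Slc17a6 in the Trim28-flox line turned from -0.47 to 1.39 (range -1.29 to 1.39). In that line the means of all 9 genes were lower in the libraries labelled KO, where Trim28 was high. Set against the Trim28 level there, all 27 pairs count as higher in the guide or low-Trim28 libraries. Slc17a6 of this line no longer does so without ctrl_trim28fl_822. As these contrasts chose the genes, the numbers of pairs restate that choice and are no support. No share over all genes is given for group means. Signs also turned with single libraries left out, none of them called, for Fancd2 in cortex (-0.068 to 0.26) and in excitatory neuron-like nuclei (-0.16 to 0.085), Slc17a6 in these nuclei (-0.041 to 0.38), Asl in NPCs (-0.065 to 1.01), and the NPC minus cortex difference of Tcfl5 (-0.78 to 0.55) and Asl (-0.93 to 0.14). Without a filter on low counts, Nup62cl, Tcfl5 and Drc1 passed in astrocyte-like nuclei (edgeR adjusted p 0.00749, 1.7e-05 and 0.0181) while the calls in excitatory neuron-like nuclei were lost, and the cause was not tested. The single lacZ libraries of both CRISPR lines could not be left out. All-gene calls in NPCs were 32, and 136 with the block, with 121 higher and 29 lower by DESeq2. In cortex they were 324 higher and 222 lower without a filter on low counts. Copies called near the genes numbered 10, also within 50 kb, and 12 with DESeq2.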
